A study of Mus musculus with 13 samples.

Results

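Ribosome biogenesis genes encode the proteins that make ribosomes without being part of them. The 53 genes described here were taken by symbol from a list of rRNA transcription and ribosome assembly factors. They stand against 19938 genes measured on one array type and 18194 on the other. The list was chosen with earlier results of these data known. The part of that choice in the shares called among the 53 was not tested. They fall into 5 roles: 5 genes of RNA polymerase I transcription, 6 nucleolar scaffold and regulator genes, 8 genes of small nucleolar ribonucleoproteins (snoRNPs), 17 genes of small subunit assembly and 17 genes of large subunit assembly. Of the 53, 51 were measured on the Mouse Gene 1.0 ST array, 52 on the Mouse Genome 430 2.0 array and 50 on both. On the first type Noc2l was not named and Ppan shared its probe set with another gene, and on the second Mrto4 shared its probe set. All the measured genes passed the filter on low values.

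The cells were B3, a mouse pre-B cell line, infected with a mouse stem cell retrovirus that also carries GFP, so that every group comes from 1 line. At 48 h after infection, 2 samples carried wild-type Ikaros with a haemagglutinin tag and 2 carried the tagged mutant 159A, which does not bind DNA; these 4 were run on 430 2.0. For earlier times, cells carried tagged Ikaros fused to the hormone-binding domain of the estrogen receptor (Ikaros-ERt2) and were given 4-hydroxytamoxifen, the ligand of that domain, for 2 h in 3 samples and for 6 h in 3 samples. The 3 control samples carried the ERt2 domain without Ikaros (vector-ERt2) and had the ligand for 6 h, and these 9 were run on Gene 1.0 ST. No control at 2 h and no Ikaros-ERt2 sample without the ligand was analysed here, so the 2 h cells were set against the 6 h controls. The 2 h and 6 h comparisons with the vector share the same 3 control arrays, and 6 h over 2 h shares arrays with both. The samples are called biological replicates, but no label ties them to separate cultures, and the p-values then reflect only how far these samples differ among themselves.

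A ribosome begins in the nucleolus, where RNA polymerase I transcribes a long rRNA precursor. snoRNPs then modify it, and a large set of assembly factors cuts and folds it into the small and large subunits together with the ribosomal proteins. The genes of these factors are usually active in growing and dividing cells, and many are known targets of Myc, which binds the E-box CACGTG. Ikaros is a zinc finger transcription factor of lymphocytes known for restraining the growth of pre-B cells, and its DNA targets share the core TGGGAA.

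RefSeq promoters (assembly GRCm38.p6, 250 bases before to 50 after a gene's start) were listed for 47 of the 53 genes. The promoters of 5 genes are printed, chosen after the expression values were seen. Polr1b is shown because it was called lower in all 4 comparisons. Nop16, Grwd1 and Wdr43 were lower at 6 h against both other groups and at 48 h, and Rrn3 is shown for contrast, since it passed no test. Capitals mark, on either strand, the E-box CACGTG, the Ikaros core TGGGAA and a core known from ETS-family factors, GGAAGT.
Polr1b, chr2:129100746-129101045, plus strand: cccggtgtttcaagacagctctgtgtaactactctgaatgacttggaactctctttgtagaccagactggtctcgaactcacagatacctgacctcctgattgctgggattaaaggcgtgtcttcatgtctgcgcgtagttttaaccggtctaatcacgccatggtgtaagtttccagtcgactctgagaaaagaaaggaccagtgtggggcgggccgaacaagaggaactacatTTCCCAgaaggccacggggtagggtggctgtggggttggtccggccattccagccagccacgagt
Nop16, chr13:54590025-54590324, minus strand: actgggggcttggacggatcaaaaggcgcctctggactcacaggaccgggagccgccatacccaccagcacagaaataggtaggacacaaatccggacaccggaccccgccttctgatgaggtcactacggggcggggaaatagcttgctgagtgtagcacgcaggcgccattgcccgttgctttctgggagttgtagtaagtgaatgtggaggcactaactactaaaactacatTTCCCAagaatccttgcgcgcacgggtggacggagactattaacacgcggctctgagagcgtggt
Grwd1, chr7:45830740-45831039, minus strand: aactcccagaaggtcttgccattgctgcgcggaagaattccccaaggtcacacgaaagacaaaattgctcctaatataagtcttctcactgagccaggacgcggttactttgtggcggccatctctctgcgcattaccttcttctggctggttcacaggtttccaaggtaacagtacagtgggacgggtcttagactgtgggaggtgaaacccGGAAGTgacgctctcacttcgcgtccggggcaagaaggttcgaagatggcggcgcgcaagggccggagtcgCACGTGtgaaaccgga
Wdr43, chr17:71615965-71616264, plus strand: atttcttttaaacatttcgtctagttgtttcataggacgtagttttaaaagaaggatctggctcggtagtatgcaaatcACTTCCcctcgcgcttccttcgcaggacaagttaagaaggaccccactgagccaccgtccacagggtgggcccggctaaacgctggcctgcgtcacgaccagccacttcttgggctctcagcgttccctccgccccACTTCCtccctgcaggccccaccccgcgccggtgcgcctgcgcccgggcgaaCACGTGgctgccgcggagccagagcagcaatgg
Rrn3, chr16:13780449-13780748, plus strand: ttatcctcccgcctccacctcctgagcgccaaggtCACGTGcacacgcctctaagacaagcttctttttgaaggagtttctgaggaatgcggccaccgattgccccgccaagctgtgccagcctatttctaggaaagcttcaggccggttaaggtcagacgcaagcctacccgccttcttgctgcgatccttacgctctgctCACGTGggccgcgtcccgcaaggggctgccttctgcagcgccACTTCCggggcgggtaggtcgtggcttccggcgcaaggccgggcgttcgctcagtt

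The Polr1b and Nop16 promoters held the same run of 14 letters, aactacatTTCCCA, and in both it began 23 bases before the start. The TTCCCA at its end is TGGGAA read on the other strand. Whether Ikaros or any other factor binds the run was not tested. Of 27025 genes with a listed promoter, 66 (0.244%) held the whole run on either strand, and among the 47 these were the only 2. With the seventh letter of ACTACANTTCCCA left free, the motif was in 249 promoters (0.921%) and in 3 of the 47, the third being Nop10. Both were searched after the promoters had been seen.

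In all, 6 motifs were searched on both strands. CACGTG was in 11 of the 47 promoters (23.4%) against 8.09% of all 27025, and CACGCG, a variant of it, in 15 (31.9%) against 10.5%. GGAAGT was in 29 (61.7%) against 26.5%. TGGGAA was in 15 (31.9%) against 28.3%, CATGTG in 10 (21.3%) against 15.9%, and TATAAA, the TATA box, in 3 (6.38%) against 15.7%. The motif TGGGAA can overlap GGAAGT by the letters GGAA. The promoters of the 47 genes held a median of 22 CG pairs against 8 over all genes, and the part of CG content in these shares was not tested.

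Genes with and without a motif were set side by side, with no test. At 6 h, 6 of 11 measured genes with CACGTG were called lower, with a median log2 change of -0.40, and so were 22 of 34 without it, with a median of -0.38. At 48 h the counts were 4 of 11, median -1.42, and 20 of 35, median -1.52. With TGGGAA, 7 of 14 were lower at 6 h and 7 of 15 at 48 h, against 21 of 31 and 17 of 31 without it. Rrn3, which passed no test, has CACGTG 215 and 48 bases before its start. Polr1b has none in this window. It had the largest change over the vector at 2 h and 6 h and at 48 h, but not at 6 h over 2 h. Both genes were picked after their values were seen, and the part of CACGTG in the changes was not tested.

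The deposited values are log2 expression values per probe set. Pearson's r between arrays of a group was 0.994 to 0.998 on Gene 1.0 ST and 0.991 to 0.996 on 430 2.0. All 7 named pre-B markers passed the filter on both types, though several differed between the groups, with values given beside the results. Defining markers of T cells, myeloid and erythroid cells were low, with 0 to 2 of each list above the filter and list means of 4.37 to 5.03 on Gene 1.0 ST, where untested genes lay under 5.10, and 2.37 to 2.91 on 430 2.0. Ikzf1, the gene of Ikaros, had means of 13.28 at 2 h and 13.26 at 6 h in Ikaros-ERt2 cells against 9.27 in vector cells. Vector-ERt2 replicate 1 has 1 label field that names the inducible Ikaros construct, against its title, and its Ikzf1 value of 9.16 was that of the other controls. On 430 2.0 the 2 Ikzf1 probe sets disagreed, at 12.04 against 11.71 (Ikaros, 159A) and 4.44 against 12.78, and check neither construct.

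At 2 h, 1 of the 51 genes passed the test: Polr1b, which encodes one of the pair of large catalytic subunits of RNA polymerase I, was lower (limma, Benjamini-Hochberg adjusted p under 0.05 over all 11963 genes tested), where 1.1% of all tested genes were called lower. None was called higher, against 0.769% of all genes. At an unadjusted p under 0.05, 6 of the 51 were lower, where 1691 of the 11963 genes passed in either direction. The median log2 change of the 51 was -0.08, against -0.01 over all genes tested, with a range from -0.60 to 0.30. A negative change was found in 35 of the 51 (68.6%), against 52.8% of all genes. In 13 of them (25.5%) every 2 h array lay below every vector array, against 9.4% of all genes. In bulk RNA, fewer cells of a type and less RNA per cell cannot be told apart, which holds for every comparison here.

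For Polr1b the vector arrays read 9.07, 8.98 and 9.05 on the log2 scale, and the 2 h arrays read 8.47, 8.26 and 8.56. The 2 groups did not overlap. The log2 change was -0.60 (standard error 0.08, n = 3 per group, adjusted p 0.00486 in limma), which is 1.52-fold lower. It was called under all 17 alternative settings tried. The subunit Polr1a, which forms the active site with it, also had its 2 h arrays (8.44, 8.39 and 8.47) below the vector arrays (8.69, 8.68 and 8.63), but its change of -0.23 did not pass (adjusted p 0.119). The highest value at 2 h was that of Nop10, a small core protein of the snoRNPs that make pseudouridine, with a change of 0.30 (adjusted p 0.32).

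At 6 h, genes of every role were lower in Ikaros-ERt2 cells. Of the 51 genes, 31 (60.8%) were called lower and none higher, where 3.2% of all tested genes were called lower and 2.58% higher. All 51 changes were negative, against 50.1% over all genes, with a range from -1.03 to -0.06. The median was -0.38, against -0.00 over all genes. The arrays of the 2 groups did not overlap in 42 of the 51 (82.4%), against 10.3% of all genes. At an unadjusted p under 0.05, 44 were lower, where 2130 of all 11963 genes passed in either direction. The number called rested on few arrays. Leaving out vector-ERt2 replicate 1 gave 15, leaving out replicate 1 of Ikaros-ERt2 at 6 h gave 18 and leaving out vector-ERt2 replicate 3 gave 19, with all 51 changes negative in each case. Those fits called 335, 359 and 412 of all tested genes, against 692 with all arrays.

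**Figure D1:**
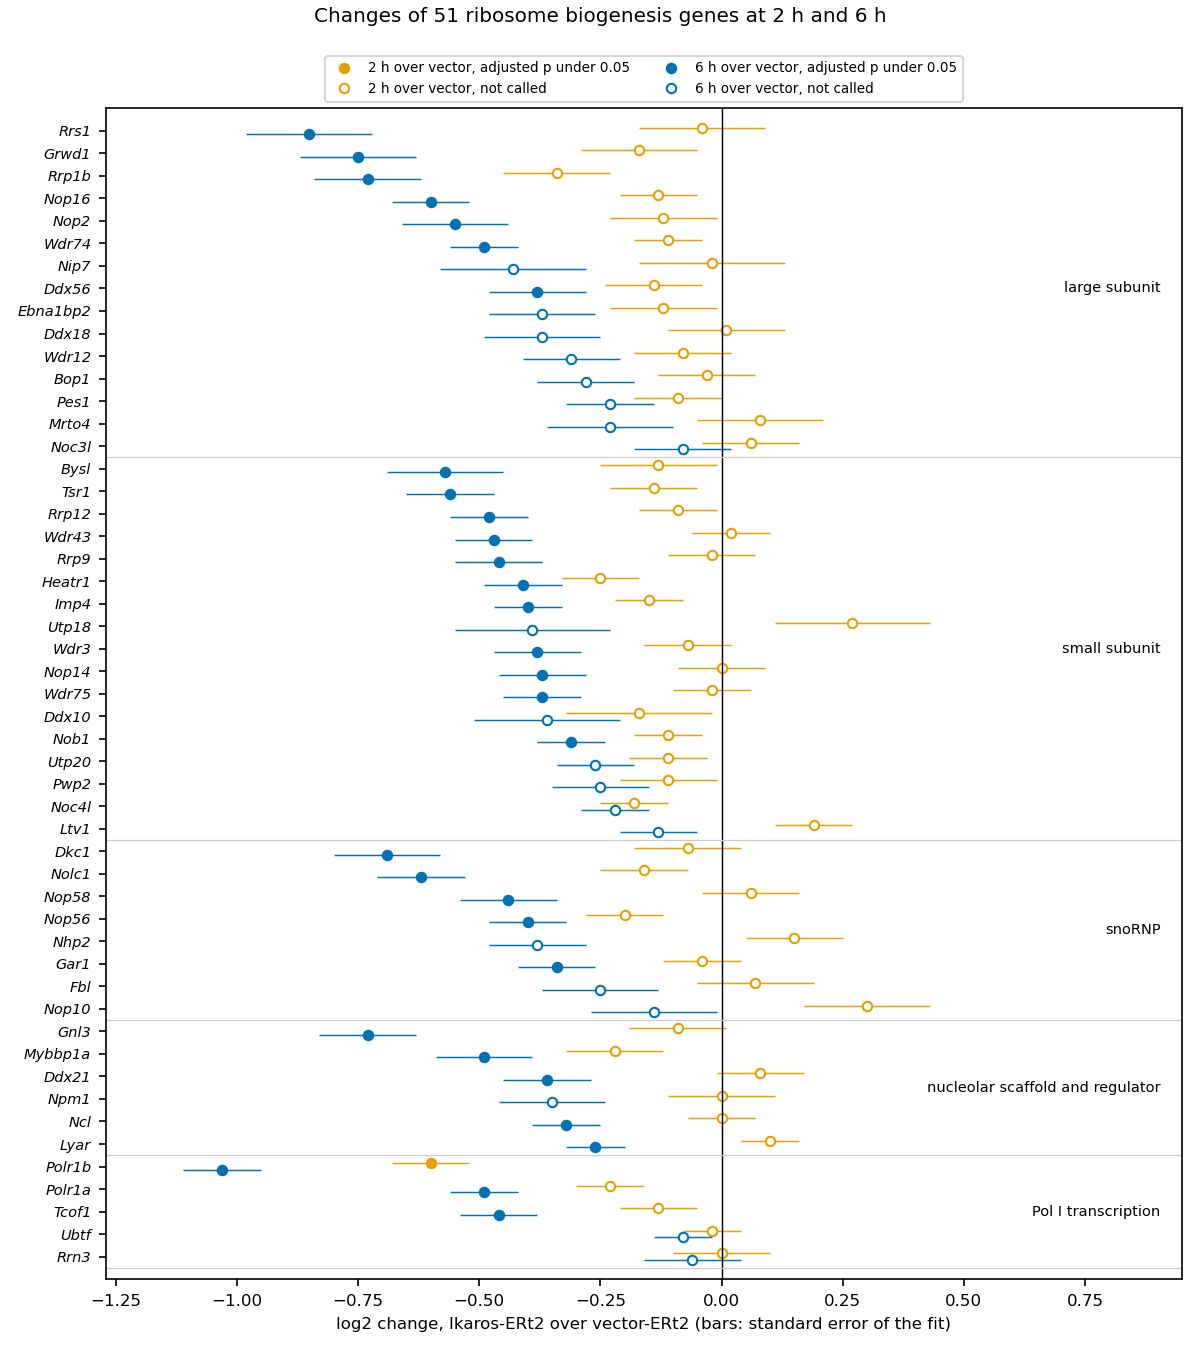
Log2 change of each of the 51 genes measured on Gene 1.0 ST, at 2 h (orange) and 6 h (blue) over vector-ERt2, in 5 roles. Points are fitted changes, bars are standard errors of the fit, filled points have an adjusted p under 0.05, and both comparisons share the 3 vector arrays. All blue points lie left of 0, from -1.03 to -0.06, and Polr1b has the only filled orange point.

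Among the 5 genes of RNA polymerase I transcription, 3 were lower at 6 h, with a median over the 5 of -0.46. Polr1b had the largest change of all 51. Its 6 h arrays read 7.96, 7.99 and 8.06, below all vector and all 2 h arrays, and the change of -1.03 (standard error 0.08, adjusted p 1.2e-04) is 2.04-fold lower. Polr1a fell by 0.49 (adjusted p 0.00156) and Tcof1, the nucleolar protein treacle that helps to start rRNA transcription, fell by 0.46 (adjusted p 0.00927). The other two did not pass. Rrn3, which carries the polymerase to the rDNA promoter, read 8.88, 8.87 and 8.84 in vector cells and 8.88, 8.81 and 8.73 at 6 h. These arrays overlapped, and its change of -0.06 (standard error 0.10, adjusted p 0.852) was the smallest of the 51. Ubtf, the rDNA-binding factor UBF, had a change of -0.08 (adjusted p 0.594).

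Of the 6 nucleolar scaffold and regulator genes, 5 were lower at 6 h. Gnl3 encodes nucleostemin, a nucleolar GTP-binding protein of dividing cells. Its vector arrays read 9.91, 9.61 and 9.77 and its 6 h arrays 8.98, 9.14 and 8.98, with no overlap. The change of -0.73 (standard error 0.10, adjusted p 0.00193) is 1.66-fold lower. Smaller changes passed for Mybbp1a (-0.49), the helicase Ddx21 (-0.36), nucleolin, encoded by Ncl (-0.32), and Lyar (-0.26). Npm1, which encodes the abundant nucleolar protein nucleophosmin, had a change of -0.35 that did not pass (adjusted p 0.0889), though its 6 h arrays (11.34, 11.47 and 11.03) lay below the vector arrays (11.67, 11.64 and 11.57).

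snoRNP genes were lower in 5 of 8 cases, with a median of -0.39. These particles are of 2 kinds: those with fibrillarin (Fbl), Nop56 and Nop58 methylate rRNA, and those with dyskerin (Dkc1), Gar1, Nhp2 and Nop10 convert uridine to pseudouridine. Dkc1, the pseudouridine synthase itself, read 10.26, 10.10 and 10.01 in vector cells and 9.51, 9.61 and 9.19 at 6 h. The groups did not overlap, and the change of -0.69 (standard error 0.11, adjusted p 0.00526) is 1.61-fold lower. Nolc1, a snoRNP chaperone, fell by 0.62 (adjusted p 0.00298). Of the methylating particle, Nop58 (-0.44) and Nop56 (-0.40) passed while the methyltransferase gene Fbl did not (-0.25, adjusted p 0.305). Of the other particle, Gar1 passed (-0.34), and Nhp2 (-0.38, adjusted p 0.0578) and Nop10 (-0.14, adjusted p 0.684) did not.

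Small subunit assembly genes were lower in 11 of 17 cases, with a median of -0.38. Among the early factors of the processome, the particle that forms on the nascent precursor, Wdr43 (-0.47), Heatr1 (-0.41), Imp4 (-0.40), Wdr3 (-0.38), Nop14 (-0.37) and Wdr75 (-0.37) passed, as did Rrp9 (-0.46), a protein of the U3 snoRNP. Utp18 (-0.39), Ddx10 (-0.36), Utp20 (-0.26), Pwp2 (-0.25) and Noc4l (-0.22) did not. Of the factors that act later, Bysl (-0.57), Tsr1 (-0.56), the export factor Rrp12 (-0.48) and Nob1 (-0.31), the nuclease that forms the mature end of the small subunit rRNA, passed, and Ltv1 (-0.13) did not. For Tsr1 the vector arrays read 9.59, 9.38 and 9.41 and the 6 h arrays 9.03, 8.87 and 8.79, again without overlap.

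Large subunit assembly genes were lower in 7 of 15 measured cases, with a median of -0.38, and this role held 2 of the 3 largest changes. Rrs1, which helps to place a small rRNA in the pre-ribosome, read 8.49, 8.31 and 8.41 in vector cells and 7.45, 7.86 and 7.35 at 6 h. Its change of -0.85 (standard error 0.13, adjusted p 0.00277) is 1.81-fold lower, and the groups did not overlap.

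Grwd1, a chaperone of a ribosomal protein, read 8.23, 7.97 and 8.02 in vector cells and 7.28, 7.57 and 7.14 at 6 h. It fell by 0.75 (standard error 0.12, adjusted p 0.0037), or 1.68-fold. For Rrp1b the vector arrays read 7.63, 7.49 and 7.87 and the 6 h arrays 7.08, 6.88 and 6.84, a change of -0.73 (standard error 0.11, adjusted p 0.00339) or 1.66-fold. In both genes the highest 6 h array lay below the lowest vector array. Nop16 (-0.60), the rRNA methyltransferase gene Nop2 (-0.55), Wdr74 (-0.49) and the helicase gene Ddx56 (-0.38) also passed.

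The 3 genes of the PeBoW complex, which processes the large subunit rRNA, did not pass at 6 h: Pes1 had a change of -0.23, Bop1 of -0.28 and Wdr12 of -0.31. Nor did Nip7 (-0.43), Ddx18 (-0.37), Ebna1bp2 (-0.37) and Mrto4 (-0.23). Noc3l had the smallest change of this role, with vector arrays at 7.61, 7.45 and 7.56 and overlapping 6 h arrays at 7.49, 7.50 and 7.40 (change -0.08, standard error 0.10, adjusted p 0.762). Polr1b, Rrs1, Grwd1, Rrp1b, Gnl3 and Dkc1 were called at 6 h under all 17 alternatives, and so were Nolc1, Nop16, Polr1a, Rrp12, Tcof1, Tsr1, Wdr43, Wdr74 and Imp4.

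**Figure D2:**
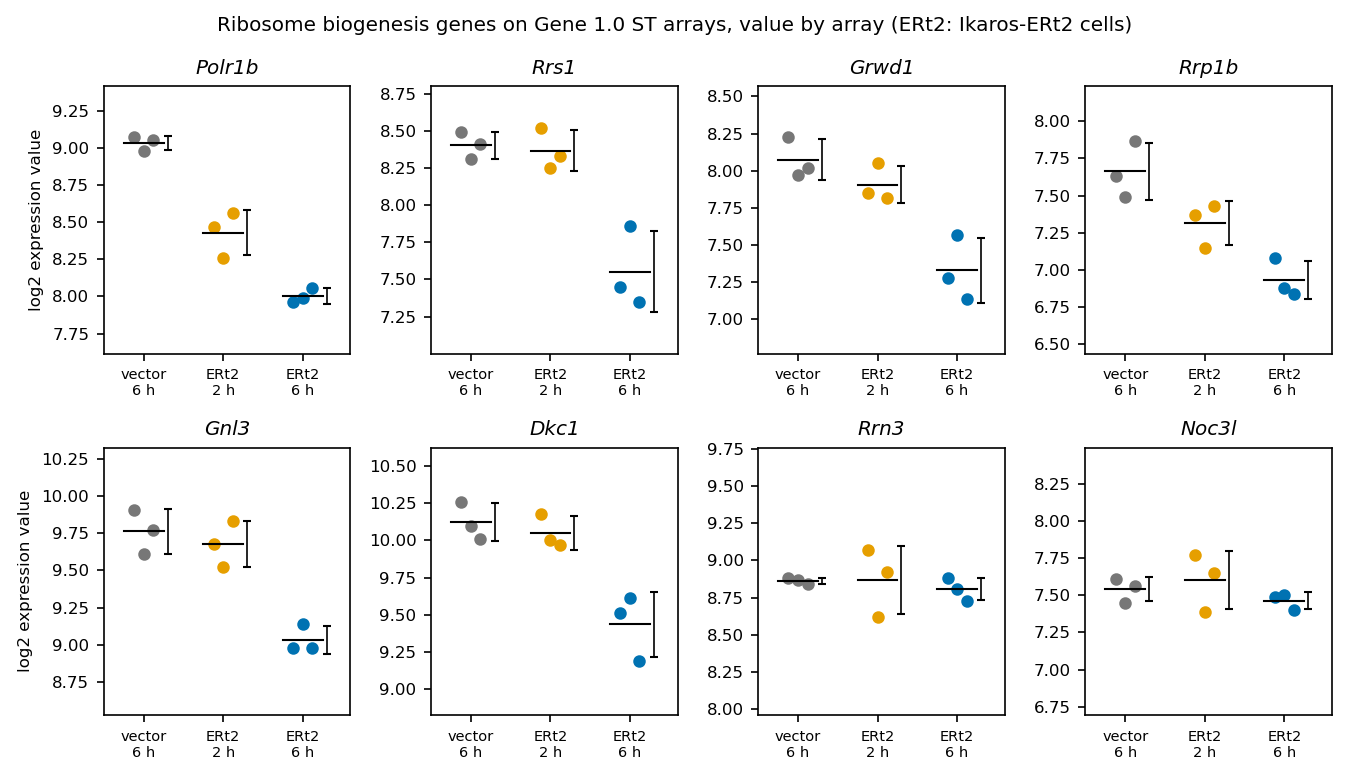
Log2 expression value of 8 genes on each Gene 1.0 ST array: the 6 with the largest called change at 6 h and the 2 with the smallest change. Points are arrays, horizontal lines are group means, bars are 1 SD, and n = 3 per group. In the first 6 panels the 6 h arrays (blue) lie below the vector arrays (grey), and only in Polr1b and Rrp1b do all 2 h arrays (orange) lie below them as well.

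Set against the same Ikaros-ERt2 cells at 2 h, the 6 h cells were lower in 12 of 51 genes and higher in none, where 0.527% of all tested genes were called lower and 0.376% higher. All 51 changes were negative (47% over all genes), from -0.82 to -0.04, with a median of -0.35 against 0.01 over all genes. In 38 of the 51 (74.5%) the arrays did not overlap, against 6.91% of all genes. The snoRNP genes had 4 of 8 called, large subunit genes 4 of 15, nucleolar genes 2 of 6, RNA polymerase I genes 1 of 5 and small subunit genes 1 of 17. The count was 12 without 6 h replicate 2 and lower without each of the other 8 arrays. None was called by limma without Ikaros-ERt2 2 h replicate 1 or 3, or without 6 h replicate 1 or 3, 4 without 2 h replicate 2, and 3, 2 and 3 without vector-ERt2 replicates 1, 2 and 3. In each of those fits 33 to 42 genes were lower at an unadjusted p under 0.05, where 1167 to 1705 of all tested genes passed in either direction. The same fits called 9 to 50 of all tested genes, against 108 with all arrays.

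Rrs1 had the largest change over 2 h. Its 2 h arrays read 8.52, 8.25 and 8.33, overlapping the vector arrays, and all 3 lay above the 6 h arrays (change -0.82, standard error 0.13, adjusted p 0.0213, 1.76-fold). Gnl3 read 9.68, 9.52 and 9.83 at 2 h and fell by 0.64 (standard error 0.10, adjusted p 0.024). Dkc1 read 10.18, 10.00 and 9.97 and fell by 0.61 (standard error 0.11, adjusted p 0.037). In these genes the 2 h arrays overlapped the vector arrays and lay above every 6 h array.

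Grwd1 read 7.85, 8.05 and 7.82 at 2 h, and its change over 2 h was -0.58 (standard error 0.12, adjusted p 0.0496). Nhp2, a core protein of the pseudouridine snoRNPs, read 10.40, 10.22 and 10.19 in vector cells, 10.45, 10.57 and 10.22 at 2 h and 9.89, 10.00 and 9.78 at 6 h. It was called over 2 h (change -0.52, standard error 0.10, adjusted p 0.0436) but not over the vector. Nop58, at 10.61, 10.33 and 10.41 at 2 h and 9.92, 10.09 and 9.85 at 6 h, fell by 0.49 (standard error 0.10, adjusted p 0.0436). Wdr43, Nop16, Nolc1, Polr1b, Wdr74 and Lyar made up the rest of the 12. Polr1b had at 2 h a change of -0.60 over the 6 h vector cells, and at 6 h over 2 h a change of -0.43 (limma adjusted p 0.0436). It was called in both comparisons, but in the second under only 7 of 17 alternatives.

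**Figure D3:**
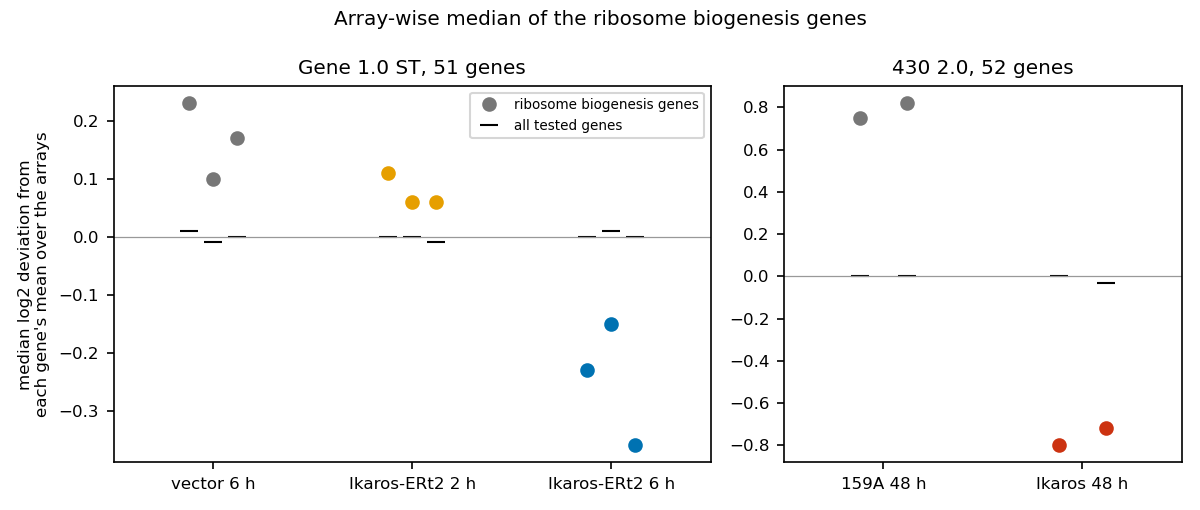
Median over the ribosome biogenesis genes of each array's log2 deviation from the gene's mean over the arrays of its type (points), with the same median over all tested genes (dashes); the left panel has 51 genes on 9 Gene 1.0 ST arrays, the right panel 52 genes on 4 arrays of 430 2.0. The 6 h arrays lie at -0.23, -0.15 and -0.36 and the 2 h arrays at 0.11, 0.06 and 0.06, while the median over all genes stays between -0.03 and 0.01.

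The array medians show how alike the replicates were. In the vector cells the median deviation was 0.23, 0.10 and 0.17, and in the 2 h cells 0.11, 0.06 and 0.06, so that these groups overlapped. All 3 arrays at 6 h were below both. The third 6 h array was lowest, with all 51 genes below their own mean, and the second was nearest to the other groups, with 44 of 51 below it.

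At 48 h, cells with wild-type Ikaros had lower values than cells with 159A in most ribosome biogenesis genes, with a 16.8-fold lower level of Polr1b at the extreme. Of 52 genes, 28 (53.8%) were called lower and none higher, where 8.47% of 10916 genes tested were called lower and 6.38% higher. All 52 changes were negative (48.6% over all genes), from -4.07 to -0.07, with a median of -1.52 against 0.00 over all genes. The 2 Ikaros arrays lay below both 159A arrays in 48 of the 52 (92.3%), against 30% of all genes. Without Ikaros replicate 1, 49 of the 52 changes were negative. The calls rest on 2 arrays a group. Leaving out an array leaves 1 in its group, so the calls could not be checked in this way and only effect sizes are given. The median change of the 52 was -1.50 and -1.58 without Ikaros replicate 1 and 2. It was -1.54 and -1.47 without 159A replicate 1 and 2. Pairing the samples by number in limma left none of the 52 called, and none of all tested genes. At an unadjusted p under 0.05 in that fit, 45 of the 52 were lower. Of all 10916 genes, 4493 passed that p in either direction. The 48 h fold changes come from another array type and construct and are not set in size against those at 6 h.

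**Figure D4:**
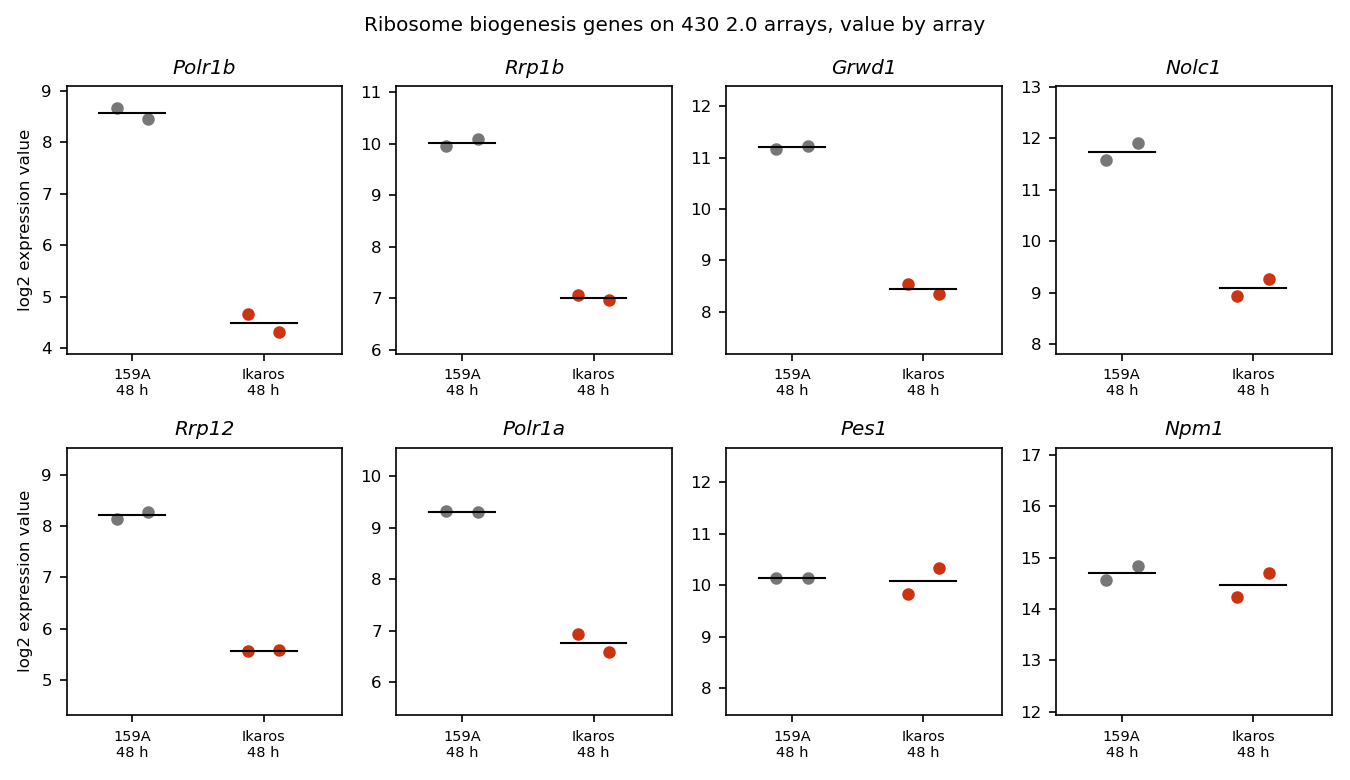
Log2 expression value of 8 genes on each 430 2.0 array at 48 h: the 6 with the largest called change and the 2 with the smallest change. Points are arrays, lines are group means and n = 2 per group. In the first 6 panels the Ikaros arrays (red) lie far below the 159A arrays (grey), and in the Pes1 and Npm1 panels they overlap.

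RNA polymerase I genes had a median change of -2.21 at 48 h, with 3 of 5 called. Polr1b read 8.67 and 8.46 in 159A cells and 4.67 and 4.32 in Ikaros cells, where the lowest value on this array type is 2.19 (change -4.07, standard error 0.18, adjusted p 0.0194). Polr1a read 9.33 and 9.30 against 6.93 and 6.59 (change -2.56, standard error 0.15, adjusted p 0.0227, 5.88-fold). Both subunits were thus lower in each Ikaros array by more than the spread within groups. Tcof1 also passed (-2.21, adjusted p 0.0433). Ubtf (-0.40, adjusted p 0.0529) and Rrn3 (-0.62, adjusted p 0.408) again did not. Leaving out probe sets near the lowest value, Ubtf was the only gene with a probe set whose change was not negative. Its dimmer probe set had a change of 0.00.

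snoRNP genes had 7 of 8 called and a median of -2.28. Nolc1 read 11.58 and 11.90 in 159A cells and 8.93 and 9.26 in Ikaros cells (change -2.64, standard error 0.20, adjusted p 0.0269, 6.24-fold). The change was -2.48 for Nop56, -2.45 for Dkc1, -2.10 for Nhp2, -1.66 for Fbl, -1.55 for Gar1 and -1.09 for Nop10, each past the threshold. Nop58 was the exception by the test and not by size: its 159A arrays agreed (10.77 and 10.73), its Ikaros arrays did not (7.26 and 8.56), and its change of -2.84 had an adjusted p of 0.0765. Fbl, Nhp2 and Nop10, which were not called at 6 h, were called at 48 h.

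Nucleolar scaffold and regulator genes had the fewest calls for their size of change, 2 of 6 with a median of -2.15. Gnl3 (-2.40, adjusted p 0.0387) and Mybbp1a (-1.95, adjusted p 0.0193) passed. Ncl read 14.14 and 14.54 in 159A cells and 11.00 and 12.97 in Ikaros cells. The SD of its Ikaros arrays was 1.39, and the change of -2.36 had an adjusted p of 0.194. Lyar had a change of -2.82 (adjusted p 0.0652) with Ikaros arrays at 8.80 and 9.76. Ddx21 had a change of -1.06 (adjusted p 0.068). Npm1 had one of the smallest changes, with 159A arrays at 14.56 and 14.84 and Ikaros arrays at 14.24 and 14.71, which overlap (change -0.23, standard error 0.24, adjusted p 0.574).

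Small subunit genes had 6 of 17 called and a median of -1.36. Rrp12 read 8.14 and 8.28 in 159A cells and 5.57 and 5.58 in Ikaros cells (change -2.63, standard error 0.08, adjusted p 0.018, 6.21-fold). Bysl (-2.07), Rrp9 (-1.76), Wdr43 (-1.62), Nob1 (-1.38) and Noc4l (-1.09) also passed. Utp20 had a change of -2.53, larger than that of 5 of these 6, with an adjusted p of 0.0541, and its Ikaros arrays stood at 7.85 and 8.71. Heatr1 (-1.52), Tsr1 (-1.42), Nop14 (-1.36), Ltv1 (-1.31), Wdr75 (-1.30), Utp18 (-1.19), Pwp2 (-1.12), Imp4 (-0.98), Ddx10 (-0.73) and Wdr3 (-0.24) did not pass.

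Large subunit genes had 10 of 16 called and a median of -1.47. Rrp1b read 9.96 and 10.09 in 159A cells and 7.06 and 6.96 in Ikaros cells (change -3.01, standard error 0.09, adjusted p 0.018, 8.08-fold). Grwd1 read 11.16 and 11.23 against 8.55 and 8.35 (change -2.74, standard error 0.10, adjusted p 0.018, 6.69-fold). In both, the gap between the groups was many times the spread within them. Noc2l, measured on this type alone, fell by 2.23 (adjusted p 0.0208). Nop16 (-2.16), Bop1 (-1.69), Nop2 (-1.65), Ddx56 (-1.52), Wdr74 (-1.43), Ebna1bp2 (-1.25) and Nip7 (-1.21) passed as well.

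Of the PeBoW genes, Bop1 was thus the only one called at 48 h. Pes1 read 10.14 on both 159A arrays and 9.82 and 10.33 on the Ikaros arrays, which lay on either side of them (change -0.07, standard error 0.22, adjusted p 0.887). Wdr12 had a change of -0.47 (adjusted p 0.364). Ddx18 (-1.52), Ppan (-0.96) and Noc3l (-0.32) did not pass. Rrs1, with the largest fall after Polr1b at 6 h, read 13.63 and 13.48 against 13.15 and 12.76 at 48 h (change -0.60, adjusted p 0.15). The probe set that stood for it there is of a kind whose probes can also match other transcripts. Its other probe set, not of that kind, had a change of -0.82. Noc4l was also represented at 48 h by a probe set of that kind, and its other probe sets had changes of -1.22 to -1.45.

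On 430 2.0 the 52 genes had 104 probe sets, with more than 1 for 34 of them, and 6 probe sets lay near the lowest value on all arrays. Of the 46 other probe sets above that level, 45 had a negative change. On Gene 1.0 ST 4 genes had several probe sets, and all 4 of the further probe sets had negative changes at 6 h.

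The 6 h and the 48 h comparison share no arrays. Of the 50 genes tested in both, 20 (40%) were lower in both, where 157 of 9246 genes (1.7%) were. The 20 were Polr1a, Polr1b, Tcof1, Gnl3, Mybbp1a, Dkc1, Gar1, Nolc1, Nop56, Bysl, Nob1, Rrp12, Rrp9, Wdr43, Ddx56, Grwd1, Nop16, Nop2, Rrp1b and Wdr74, which is 64.5% of the 31 lower at 6 h and 74.1% of the 27 lower at 48 h and tested at 6 h. By the threshold 11 were lower at 6 h alone and 7 at 48 h alone, and no difference between those groups was tested. Called in neither were 12: Ddx10, Ddx18, Ltv1, Noc3l, Npm1, Pes1, Pwp2, Rrn3, Ubtf, Utp18, Utp20 and Wdr12. Across the 50 genes the changes at 6 h and 48 h had a Pearson r of 0.586 and a Spearman rho of 0.552, against 0.41 and 0.394 across the 9246 genes. Genes are not independent replicates, and no test was made of these correlations.

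**Figure D5:**
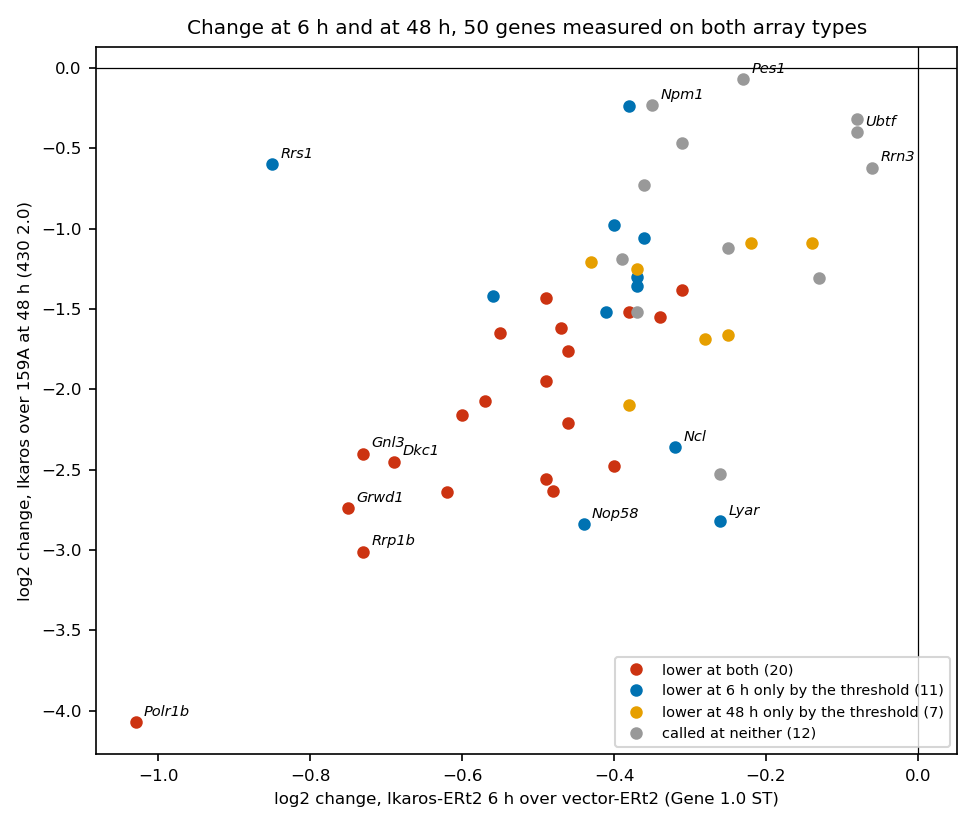
Log2 change at 48 h (Ikaros over 159A, 430 2.0) against log2 change at 6 h (Ikaros-ERt2 over vector-ERt2, Gene 1.0 ST) for the 50 genes measured on both array types, coloured by where they were called lower. All 50 points lie below and left of 0. Polr1b (-1.03 and -4.07) is at the lower left, and Rrn3, Ubtf and Pes1 are near the upper right.

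Dkc1, Gnl3, Grwd1, Nolc1, Nop16, Polr1b, Wdr43 and Wdr74 were called lower at 6 h over the vector, at 6 h over 2 h and at 48 h. These 8 include a catalytic subunit of RNA polymerase I, the pseudouridine synthase and its chaperone, nucleostemin and 4 assembly factors of both subunits. A plasma cell gene differed between the 48 h groups as well: Jchain, the joining chain of immunoglobulin, had a mean of 2.62 in 159A cells and 8.20 in Ikaros cells. The other 3 of 4 plasma cell markers, Prdm1, Sdc1 and Tnfrsf17, stood at 2.19 to 2.21 in both groups, at the lowest level of the array, and the list mean was 2.30 in 159A cells and 3.70 in Ikaros cells. The part of Jchain-expressing cells in the change of the ribosome biogenesis genes was not tested. On Gene 1.0 ST the plasma cell list mean was 4.31 to 4.34 in the 3 groups. The myeloid marker Lyz2, a lysozyme gene, had a mean of 4.39 in 159A cells and 2.65 in Ikaros cells.

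Pre-B markers differed between the same groups. Igll1 and Vpreb1, which encode the surrogate light chain of the pre-B cell receptor, had means of 14.89 and 14.74 in 159A cells and 8.97 and 10.82 in Ikaros cells. Cd79b, Blnk, Ebf1 and Pax5 had means of 12.62, 8.62, 13.23 and 8.63 in 159A cells and higher ones, 14.74, 10.69, 14.47 and 9.88, in Ikaros cells. For Cd79a the arrays of the 2 groups overlapped. At 6 h, Igll1, Vpreb1 and Blnk had means of 13.19, 9.82 and 8.16 in vector cells and 12.12, 8.66 and 7.22 in Ikaros-ERt2 cells, with no overlap of arrays. Cd79a was also lower, at 11.05 in vector cells and 10.89 in Ikaros-ERt2 cells. Cd79b and Ebf1 were higher, at 11.28 and 9.89 in vector cells and 11.57 and 10.21 in Ikaros-ERt2 cells. The arrays did not overlap in these genes either, while those of Pax5 did. The list mean was 11.54 to 11.92 on 430 2.0 and 9.96 to 10.34 on Gene 1.0 ST. The part of these markers in the ribosome biogenesis results was not tested.

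Other genes of the pathway were read in 5 lists of 135 genes. At 2 h, 2 of 126 tested (1.59%) were lower, near the 1.1% of all tested genes. They were the small subunit factor Imp3 (-0.38, limma adjusted p 0.0185) and Gtf3c5 (2-fold lower, adjusted p 0.00262). The latter encodes a subunit of TFIIIC, which starts transcription by RNA polymerase III. At 6 h, 20 of 126 (15.9%) were lower, against 3.2% of all tested genes, with a median of -0.19. By list, these were none of 8 further RNA polymerase I genes, 6 of 38 small subunit genes (15.8%) and 11 of 46 large subunit genes (23.9%). The others were 1 of 14 exosome and exonuclease genes (7.14%) and 2 of 20 RNA polymerase III genes (10%). The largest were Gtf3c5 (-1.15) and Polr3e (-0.39) for RNA polymerase III, Dimt1 (-0.69), an rRNA dimethyltransferase, and Nat10 (-0.67), an rRNA acetyltransferase, for the small subunit, and Mdn1 (-0.63), a large ATPase of assembly, and Nifk (-0.55) for the large subunit. Exosc1 (-0.34) was the exosome gene. Over 2 h, 4 of 126 (3.17%) were lower at 6 h, against 0.527% of all tested genes: Nifk (-0.58), Utp4 (-0.53), Aatf (-0.48) and Nat10 (-0.46).

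At 48 h, 23 of 129 of these further genes (17.8%) were lower and 1 was higher, with a median of -0.50. Of all tested genes, 8.47% were called lower and 6.38% higher. The exosome, which trims rRNA ends, had 6 of 14 called, Dis3 (-1.94) and Exosc5 (-1.74) leading. Small subunit genes had 9 of 40 called (22.5%), with Nat10 (-2.25) and Pno1 (-1.67) first. Large subunit genes had 5 of 46 (10.9%), near the share over all genes, with Tma16 (-2.43) and Rrp15 (-2.22) first. RNA polymerase I genes had 1 of 8 (12.5%), Polr1c (-1.14). Of 21 RNA polymerase III genes, Gtf3c5 (-1.73) and Polr3e (-1.73) were lower (9.52%), also near the share over all genes. Maf1, the repressor of that polymerase, was higher (0.58, limma adjusted p 0.0444). Gtf3c5 and Imp3 (-0.49 at 6 h and -1.11 at 48 h), like Polr1b, were thus called lower at 2 h, 6 h and 48 h. No test compared these lists with the 53 genes.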

How the data were processed

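Total RNA of 13 samples was hybridised to 2 Affymetrix array types. The values deposited by the authors are log2 expression values per probe set, with GCRMA, RMA, affy and limma listed in the submitters' processing notes without versions or roles, so which tool made which table is not given in the sources used here. Per the labels' protocols, RNA was amplified with a two-cycle kit for 430 2.0 and a whole-transcript kit for Gene 1.0 ST, and each type was analysed alone.

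Only probe sets with 1 gene symbol in the platform annotation were used (34958 of 45101 on 430 2.0, where 932 had several and 9211 none listed, and 21789 of 35556 on Gene 1.0 ST, where 1621 had several and 12146 none listed). The probe set with the highest mean stood for a gene, and the lowest 40% of genes by mean were not tested. Groups were compared with lmFit and eBayes in limma 3.58.1 (R 4.3.3), two-sided, with Benjamini-Hochberg adjusted p under 0.05 over all genes tested, in 1 fit of 9 arrays for Gene 1.0 ST and 1 fit of 4 arrays for 430 2.0. The script was tested on simulated data. The number of arrays limits the precision. Alternatives were other filters, quantile normalization, centring, eBayes with trend and robust settings, the mean of probe sets, a replicate block, only the compared groups, and leaving out each array.

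All 53 genes are named. Values by array are given for the 6 with the largest called change per comparison and the 2 with the smallest change at 6 h and 48 h, with a few others chosen after their values were seen; up to 2 called genes per further list are named. The genes, the lists and the tests were chosen with earlier results of these data known. Promoters and gene names are RefSeq's, assembly GRCm38.p6, and no reference genome was used here. Same-numbered 2 h and vector arrays had weak positive correlations of deviations from the group means, of 0.119, 0.128 and 0.235. Arrays of different numbers reached 0.0405 there, but 0.339 for 2 h replicate 2 and 6 h replicate 3. A pairing was thus not established, and the labels name none. Same-numbered arrays gave mixed signs for 2 h and 6 h (0.244, -0.258 and -0.17) and for 6 h and vector (-0.00353, -0.0958 and 0.106).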

Additional observations from a re-analysis of the deposited data

Results flagged for a closer look

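In 12 genes the change at 6 h differed from the change at 2 h, tested as 6 h over 2 h in the fit of all 9 Gene 1.0 ST arrays (limma adjusted p under 0.05), with both changes taken over the same vector arrays. The log2 difference, 6 h minus 2 h, was -0.82 for Rrs1, -0.64 for Gnl3, -0.61 for Dkc1, -0.58 for Grwd1, -0.52 for Nhp2, -0.49 for Nop58 and -0.49 for Wdr43. It was -0.47 for Nop16, -0.46 for Nolc1, -0.43 for Polr1b, -0.38 for Wdr74 and -0.36 for Lyar. In all 12 the 3 arrays at 6 h lay below the 3 arrays at 2 h. Polr1b was the only one of the 12 that had also passed the test at 2 h. Lyar had a positive change at 2 h (0.10, adjusted p 0.567), and its 2 h arrays lay above the vector arrays.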

How the results depend on the processing

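The Polr1b call at 2 h was made under all 17 alternatives. At 6 h the count of 31 genes was 23 to 35 under the 8 settings that keep all arrays being compared, and 15 to 34 when 1 array was left out. Of all tested genes, 480 to 875 and 335 to 711 were called in those fits, against 692 in the main fit. Over 2 h the count of 12 was 5 with no filter, 20 after quantile normalization and 19 after centring. Those settings called 59, 179 and 158 of all tested genes, against 108 in the main fit. The count of 12 became 0 to 12 when 1 array was left out, where 9 to 149 of all tested genes were called. With only the compared groups fitted, 0 of the 51 and 0 of all tested genes were called. In that last limma fit 39 genes were lower at an unadjusted p under 0.05, where 1300 of all tested genes passed in either direction. At 48 h the count of 28 was 4 with no filter, 39 of 50 with the 60% filter, 37 after quantile normalization and 38 after centring. Those settings called 185, 1769, 2247 and 2437 of all tested genes, against 1621 in the main fit. Leaving out a 48 h array leaves 1 in its group, so no count is given for it. The cause of these shifts was not tested. The replicate block, for a pairing that was not established, gave 1 at 2 h, 30 at 6 h and 13 over 2 h. At 48 h, with 2 pairs (correlation 0.572), the block left 0 of 52 called, and 0 of all tested genes. At an unadjusted p under 0.05, 45 were lower, where 4493 of all tested genes passed in either direction. At 48 h only the shared number ties the pairs. Centring moved the 48 h median of all genes to 0.105.

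Changes of sign were found for genes that had passed no test: Rrn3 over 2 h without Ikaros-ERt2 2 h replicate 1 (0.04, range over arrays left out -0.19 to 0.04), Pes1 at 48 h after centring (0.03) and without Ikaros replicate 1 (0.19, range -0.33 to 0.19), and Npm1 (0.00, range -0.46 to 0.00) and Ddx10 (0.06, range -1.52 to 0.06) at 48 h without Ikaros replicate 1. The cause was not tested for these either. On 430 2.0, 36.7% of values lay within 0.01 of the lowest value, while the lowest value of the 52 genes was 4.32.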
